A study of Mus musculus with 15 samples.

Results

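The gap and tight junction genes *Gja1*, *Gjb2*, *Panx1*, *Cldn1*, *Cldn11*, *Tjp1* and *F11r* were followed in the RNAseq data of mouse bone marrow-derived macrophages (BMDMs), as 7 of the 53465 genes of the count table. The genes were chosen by symbol with earlier results of these libraries in view, in which *Gja1* was raised by IL-4/IL-6 and *Cldn11* by IL-4, so those differences are given below as descriptions without a test. The other 5 members came from the same families, and their adjusted p-values give their place among all tested genes and are not independent support for the choice. *Gjb2* had a count of 0 in every library, and the other 6 members passed the filter on low counts.

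The BMDMs were grown from bone marrow for 7 days with M-CSF (20 ng/ml) and 10% FBS, and the study's methods describe the donors of cultured marrow as homozygous YFP reporter mice aged 8 to 12 weeks, without stating the genotype for the RNAseq cells themselves. All groups shared this culture. For 24 h the cells were left without added cytokine (control) or received IL-4 (10 ng/ml) or IL-13 (40 ng/ml), each alone or together with IL-6 (40 ng/ml), the latter groups being IL-4/IL-6 and IL-13/IL-6. Each group had 3 libraries, 15 in all. No library had IL-6 alone, so the effect of IL-6 was seen only on top of IL-4 or IL-13, and IL-4 and IL-13 differed in dose as well as in kind.

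Gap junction channels are built from connexins and join the cytoplasm of neighboring cells, while pannexins form related channels in a single membrane that release ATP and other small molecules. Tight junctions seal the space between epithelial or endothelial cells. Their strands are made of claudins, junctional adhesion molecules such as the product of *F11r* lie beside them, and scaffold proteins such as ZO-1, the product of *Tjp1*, tie them to actin. Macrophages can express genes of these families, and IL-4-activated macrophages can attach to each other and fuse.

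Summed counts per library were between 17001352 and 18918686, and the biological coefficient of variation between replicates ranged from 4.49% in control to 14.9% in IL-4/IL-6. All 10 macrophage markers were detected, with summed levels between 11500 and 21700 normalized CPM (CPM with library totals scaled by TMM factors). Most of the sum was *Lyz2*, with means of 14900 in control and 6850 in IL-4/IL-6. The markers differed in direction, and 4 of the 10 had their highest mean in control. The control libraries stood apart in markers of other bone marrow cells. All 10 markers of granulocytes and their precursors had their highest mean in control, where they summed to between 495 and 584 normalized CPM against between 1.64 and 2.89 in the cytokine groups. Of the 8 megakaryocyte and platelet markers 7 were highest in control, *Itga2b* with a mean of 114 normalized CPM against at most 1.72. The exception, *Pf4*, was highest in IL-13/IL-6 at 390.0. Of 10 stromal markers 9 were highest in control, where the list summed to between 17.2 and 21.9 against at most 0.774 elsewhere. Epithelial markers summed to at most 0.617 in any library. Among replicates, IL-4/IL-6 replicate 2 (mean chi-square per gene of 26.3 and 46.6 against its partners) and IL-13 replicate 1 (17.1 and 22.3) stood apart, where no other pair exceeded 7.95. In bulk RNA, fewer cells of a type and less RNA per cell cannot be told apart.

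**Figure D1:**
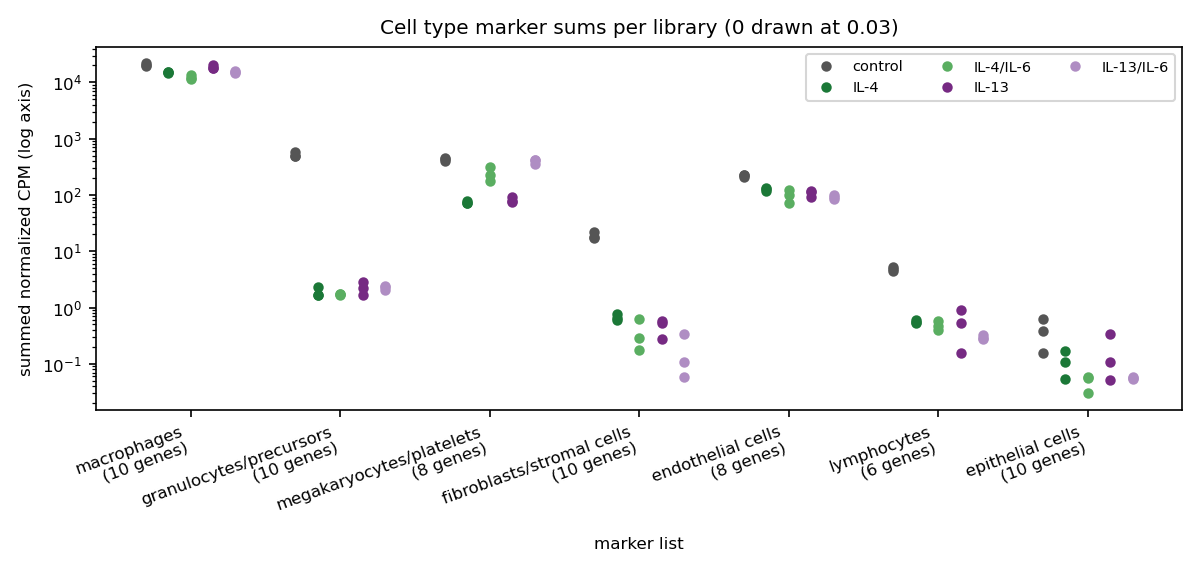
Summed normalized CPM (log axis) of the marker genes of each cell type list, with 1 point for each of the 3 libraries of a group. Granulocyte markers summed to between 495 and 584 in control and to at most 2.89 in every other library, while macrophage markers summed to at least 11500 in all 15 libraries.

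*Gja1* (ENSMUSG00000050953, GRCm38 chr10:56377330-56402513, plus strand) encodes connexin Cx43, the most widely expressed gap junction protein. It had the largest difference between group means in normalized CPM of the members, and it was high in the 6 libraries that received IL-6. The control libraries had 1.72, 1.61 and 1.23 normalized CPM of *Gja1*, while those of IL-4 had 1.28, 3.37 and 1.85. In IL-4/IL-6 the values were 347.3, 329.7 and 340.7. Without IL-6 the gene was thus detected at a low level, and no library without IL-6 came near any with it. The IL-13 libraries had 1.93, 1.91 and 0.927 normalized CPM, and the IL-13/IL-6 libraries had 122.3, 117.2 and 115.5.

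The IL-4/IL-6 libraries, at 339.2 ± 8.87 (SD, n = 3), exceeded IL-4, with a mean of 2.17 and the range given above, 156-fold (7.29 on the log2 scale, standard error 0.193), a description without a test. With IL-6 on IL-13, a comparison that may not be independent of the choice of the gene, *Gja1* rose from 1.59 ± 0.574 to 118 ± 3.52 normalized CPM (SD, n = 3), which was 74.7-fold, or 6.22 on the log2 scale with a standard error of 0.199 (quasi-likelihood test of edgeR, adjusted p = 3.55e-13), and it was higher in each of the 3 libraries. The level with IL-6 was 2.87-fold higher on IL-4 than on IL-13 (log2 fold change 1.52, standard error 0.133), again a description, at the unequal doses given above. The IL-6 difference on IL-4 exceeded that on IL-13 by 1.07 on the log2 scale (standard error 0.325). This last value depended on single libraries at the low counts without IL-6, and it ranged from 0.79 to 1.52 when libraries were left out in turn.

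With IL-4 or IL-13 alone *Gja1* overlapped the control range (log2 fold change 0.50, standard error 0.293, and 0.05, standard error 0.312, the latter with adjusted p = 0.902 in edgeR). The IL-4 value, given without a test, ranged from 0.084 to 0.81 when libraries were left out in turn. The order of the group means was IL-4/IL-6, IL-13/IL-6, IL-4, IL-13 and control, and the ranges of the last 3 overlapped. The 10 stromal markers summed to 0.177 to 0.633 normalized CPM in IL-4/IL-6 and 0.0578 to 0.334 in IL-13/IL-6, against 0.6 to 0.774 in IL-4 and 0.281 to 0.566 in IL-13, with *Col1a1* and *Col3a1* at 0 in all 4 groups. *Pf4* moved in the same direction, with means of 235 in IL-4/IL-6 and 390.0 in IL-13/IL-6 against 68.6 in IL-4 and 75.4 in IL-13, as did *Ppbp*, with 2.80 and 4.16 against 1.59 and 1.87. The means of the other 6 megakaryocyte and platelet markers were at most 1.72 in these 4 groups. The part of these cells in the *Gja1* values was not tested.

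**Figure D2:**
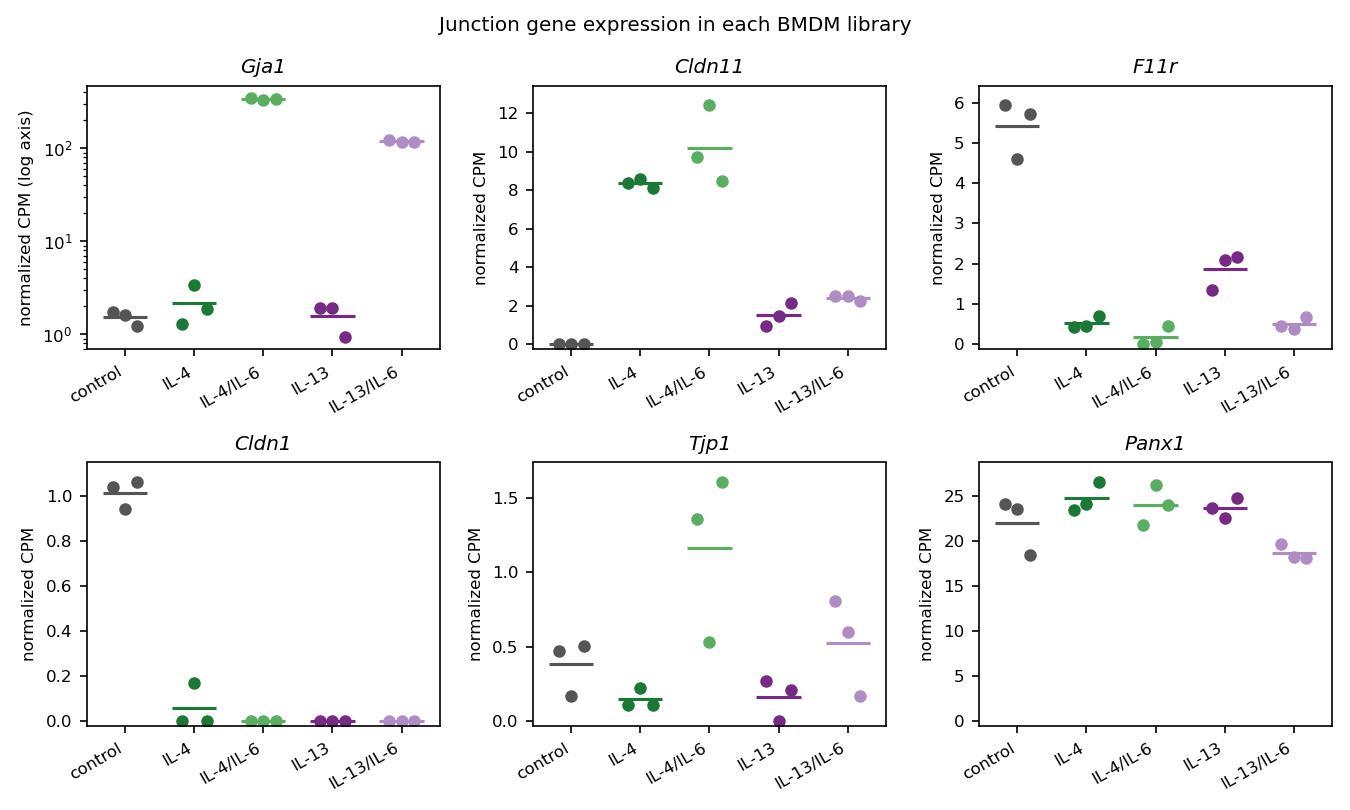
Normalized CPM of the 6 detected junction genes in each of the 15 libraries by group, with the horizontal line at the group mean; *Gja1* is on a log axis and the other panels are linear from 0. The *Gja1* libraries with IL-6 sit between 115.5 and 347.3 and those without at or below 3.37, *Cldn11* is at 0 in control only, and *F11r* and *Cldn1* are highest in control.

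*Gjb2* (ENSMUSG00000046352, chr14:57098600-57104702, minus strand) encodes the connexin Cx26 of cochlear and skin epithelium. A count of 0 in each library allows up to 3 counts, which is between 0.155 and 0.177 normalized CPM depending on the library and covers counting error only. Beside *Gja1*, *Gjb2* and the 18 other connexin genes were at or near 0. Of the 20 connexin genes listed 11 had any count, *Gja1* alone passed the filter, and none of the other 10 exceeded 4 counts in any library.

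*Panx1* (ENSMUSG00000031934, chr9:15002128-15045478, minus strand) encodes the pannexin channel best known for ATP release from dying and activated cells. It was expressed in every library within a narrow range, from 18.1 to 26.6 normalized CPM. The control libraries had 24.2, 23.5 and 18.4 normalized CPM. Values were 23.4, 24.2 and 26.6 with IL-4, to which IL-4/IL-6 compared with 21.8, 26.2 and 24.0, so that these groups overlapped. The IL-13 libraries had 23.7, 22.6 and 24.8, and all of them were above the IL-13/IL-6 libraries at 19.7, 18.2 and 18.1.

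*Panx1* fell by 0.34 on the log2 scale with IL-6 on IL-13 (standard error 0.106, adjusted p = 0.023, edgeR), and the call was lost without IL-13 replicate 3 (adjusted p = 0.0804) and without IL-13/IL-6 replicate 2 (0.0681) or 3 (0.0664). With IL-6 on IL-4 the difference was -0.04 (95% interval -0.27 to 0.18, adjusted p = 0.775, edgeR). The IL-4/IL-6 libraries were higher than IL-13/IL-6 by 0.36 on the log2 scale (standard error 0.106, adjusted p = 0.0153, edgeR), and this call was lost without IL-4/IL-6 replicate 2 (0.0589) or IL-13/IL-6 replicates 2 (0.0599) or 3 (0.0573). The test of the 2 IL-6 effects against each other gave a difference of 0.30 (standard error 0.149, adjusted p = 0.308, edgeR). The other pannexins, *Panx2* and *Panx3*, had at most 5 and 2 counts in any library.

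*Cldn11* (ENSMUSG00000037625, chr3:31149920-31164324, plus strand) encodes the claudin of myelin and of the barrier between Sertoli cells in the testis. It was at a count of 0 in all 3 control libraries and was present in every library with IL-4 or IL-13. The IL-4 libraries had 8.40, 8.57 and 8.13 normalized CPM of *Cldn11*, while those of IL-4/IL-6 had 9.75, 12.4 and 8.46. The IL-13 libraries had 0.963, 1.46 and 2.16, and the IL-13/IL-6 libraries had 2.49, 2.49 and 2.22. The 6 libraries with IL-4 were all above the 6 with IL-13.

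Against the limit of 3 counts per control library, IL-4 held at least 51.2-fold higher *Cldn11*, IL-4/IL-6 was at least 62.5-fold higher, IL-13 was at least 9.36-fold higher and IL-13/IL-6 was at least 14.7-fold higher. *Cldn11* passed the filter on low counts only through cytokine libraries, so these differences from control are a description without a test. At the unequal doses, *Cldn11* was 2.44 higher on the log2 scale in IL-4 than in IL-13 (standard error 0.227) and 2.08 higher in the IL-4/IL-6 group when set against IL-13/IL-6 (standard error 0.212), both as descriptions. The differences of *Cldn11* with IL-6 were small beside those above. On IL-4 the log2 fold change was 0.29 (95% interval -0.11 to 0.68), given without a test, and the groups overlapped. On IL-13 the log2 fold change was 0.64 (95% interval 0.09 to 1.19, adjusted p = 0.0858, edgeR), and although the 3 libraries with IL-6 were above the 3 without, the difference did not pass, but it did without IL-13 replicate 3 (log2 fold change 0.98, adjusted p = 0.015).

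*Cldn1* (ENSMUSG00000022512, chr16:26356642-26371841, minus strand) encodes a claudin of the epidermal barrier. Its pattern was the reverse of that of *Cldn11*, at a low level. The control libraries had 20, 17 and 19 counts of *Cldn1* (1.02 ± 0.0656 normalized CPM, SD, n = 3). The IL-4 libraries had 0, 3 and 0 counts, and the IL-4/IL-6, IL-13 and IL-13/IL-6 libraries had none. Compared with control, *Cldn1* in IL-13 was at least 6.30-fold lower, IL-13/IL-6 was at least 6.06-fold lower and IL-4/IL-6 was at least 5.87-fold lower, and the ratio of control to IL-4 was 18.7 (95% exact counting interval 6.07 to 93.3), with all 3 counts of IL-4 in replicate 2. *Cldn1* passed the filter on low counts only through the control libraries, so these differences are a description without a test. Between the cytokine groups no difference was detectable at this depth. The granulocyte, megakaryocyte and stromal markers that set the control libraries apart moved with *Cldn1*, and their part in the difference was not tested.

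*F11r* (ENSMUSG00000038235, chr1:171437535-171464603, plus strand) encodes JAM-A, an adhesion molecule of tight junctions that leukocytes and platelets also carry. It was lower than control in every cytokine group, and it was lower again with IL-6 on IL-13. The control libraries had 5.94, 4.60 and 5.72 normalized CPM of *F11r* (114, 83 and 102 counts). The IL-13 libraries had 1.34, 2.08 and 2.16, and the IL-13/IL-6 libraries had 0.462, 0.379 and 0.667. The IL-4 libraries had 0.428, 0.443 and 0.709, while those of IL-4/IL-6 had 0, 0.0589 and 0.460 (0, 1 and 8 counts). The ranges of control, IL-13 and IL-4 did not overlap, whereas IL-4 overlapped with IL-4/IL-6.

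*F11r* fell by 3.35 on the log2 scale in IL-4 (standard error 0.387, adjusted p = 8.2e-07), by 1.54 in IL-13 (standard error 0.322, adjusted p = 0.000549), and it fell by 4.91 in IL-4/IL-6 (standard error 0.473, adjusted p = 6.29e-08) and by 3.41 in IL-13/IL-6 (standard error 0.392, adjusted p = 7.94e-07), all against the same control libraries in edgeR's test. The markers of granulocytes and stromal cells summed higher in these control libraries too. Platelet and megakaryocyte markers summed to 405 to 453 normalized CPM in control and at most 90.8 with IL-4 or IL-13 alone. Their sums were 175 to 314 in IL-4/IL-6 and 349 to 422 in IL-13/IL-6, with *Pf4* above its control mean of 97.3 in both. The part of all these markers in the 4 differences was not tested. Without IL-4/IL-6 replicate 3 the value of IL-4/IL-6 against control was -7.25. With IL-6 on IL-13, *F11r* fell by 1.87 (standard error 0.431, adjusted p = 0.00326, edgeR), and granulocyte markers summed to 1.65 to 2.89 normalized CPM in IL-13 and 2.02 to 2.44 in IL-13/IL-6. Megakaryocyte and platelet markers summed to 73.9 to 90.8 in IL-13 and 349 to 422 in IL-13/IL-6, mostly *Pf4*, and their part in the difference was not tested. At the unequal doses *F11r* was lower in IL-4 than in IL-13 (log2 fold change -1.81, standard error 0.425, edgeR adjusted p = 0.00846). With IL-6 on IL-4 the log2 fold change was -1.57 (95% interval -2.95 to -0.18, adjusted p = 0.0681, edgeR). It passed without IL-4/IL-6 replicate 3, the library with 8 counts (log2 fold change -3.91, adjusted p = 0.00108). The difference between the IL-6 effects on IL-4 and on IL-13 was 0.31 (standard error 0.92, adjusted p = 0.923, edgeR). Without IL-4/IL-6 replicate 3 this difference reversed to -2.03.

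*Tjp1* (ENSMUSG00000030516, chr7:65296165-65527781, minus strand) encodes ZO-1, the scaffold that binds the ends of both claudins and connexins. It was near the limit of detection, with at most 28 counts in any library, and only libraries with IL-6 reached 10 counts. The control libraries had 9, 3 and 9 counts of *Tjp1*, the IL-4 libraries 2, 4 and 2, and those of IL-4/IL-6 had 24, 9 and 28. The IL-13 libraries had 5, 0 and 4 counts and the IL-13/IL-6 libraries 14, 11 and 3. The IL-4/IL-6 libraries were above all IL-4 libraries, while the IL-13 and IL-13/IL-6 libraries overlapped. As *Tjp1* passed the filter only through libraries with IL-6, its differences are a description without a test. The log2 fold change of *Tjp1* was 2.95 with IL-6 on IL-4 (from 0.146 ± 0.0654 to 1.17 ± 0.566 normalized CPM, SD, n = 3, standard error 0.687), and the value with IL-6 on IL-13 was 1.66 (standard error 0.754). The difference of these effects was 1.29 (standard error 1.13), and it ranged from 0.73 to 1.83 when libraries were left out in turn. Over control, *Tjp1* in IL-4/IL-6 had a log2 fold change of 1.60 (standard error 0.579), which was 1.25 without control replicate 2.

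Without IL-4/IL-6 replicate 2, 18 of 21 member differences kept their direction and side of the threshold, and without IL-13 replicate 1 19 of 21 did. The IL-6 log2 fold change of *Gja1* was 7.30 on IL-4 and 6.39 on IL-13 without these libraries, and that of *F11r* on IL-13 was -2.07. *Cldn11* was 2.201 higher on the log2 scale in IL-4 than in IL-13 without IL-13 replicate 1. *F11r* against control was -4.50 in IL-4/IL-6 and -1.32 in IL-13. The IL-6 log2 fold change of *Tjp1* was 3.28 on IL-4 and 2.21 on IL-13, that of *Panx1* -0.13 and -0.35, and that of *Cldn11* 0.11 and 0.39.

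**Figure D3:**
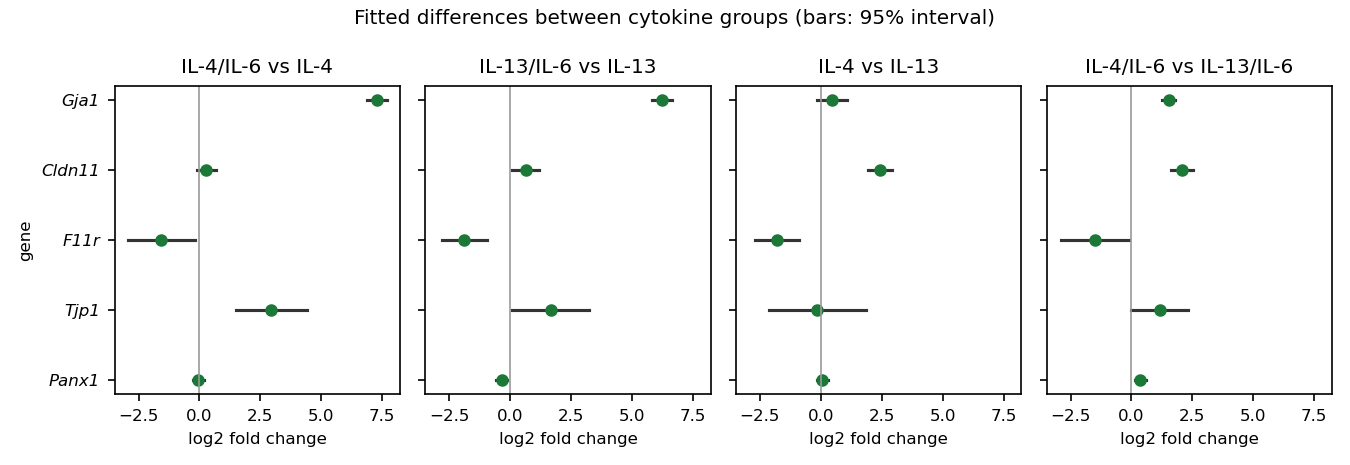
Fitted log2 fold change (point) and its 95% interval (bar) of the 5 junction genes that can be compared between cytokine groups, for each of 4 comparisons. *Gja1* lies at 7.29 and 6.22 in the comparisons of IL-6 with no IL-6, *Cldn11* at 2.44 and 2.08 in the comparisons of IL-4 with IL-13, and *F11r* below 0 in all 4, where 2 of the 4 values passed the test.

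Counted over the members and read beside all 13938 tested genes, calls were common in the comparisons with control. In IL-4 1 member was called higher and 2 lower, where 68.0% of all tested genes were called in either direction. In IL-13 the count was again 1 higher and 2 lower, with 60.1% of all genes called. In IL-4/IL-6 3 members were called higher and 2 lower (72.9% of all genes), and in IL-13/IL-6 2 higher and 2 lower (64.0%). The 4 comparisons share their control libraries. Between the cytokine groups fewer genes were called. With IL-6 on IL-4 2 members were higher and none lower (39.4% of all genes called), with IL-6 on IL-13 1 was higher and 2 lower (25.6%), in IL-4 against IL-13 1 was higher and 1 lower (12.8%), and in IL-4/IL-6 against IL-13/IL-6 3 were higher and none lower (31.3%). The test of the IL-6 effects against each other called 7.64% of all genes and 0 members in edgeR. At an unadjusted p under 0.05 the count was 1 member, as it was by DESeq2's call. The counts include *Cldn1*, *Cldn11* and *Tjp1*, which passed the filter only through the groups where they were high. Since the members were chosen with results in view, the counts describe them and nothing was read from them.

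Per length, the members spanned a wide range of levels. In FPKM, which the authors had divided by gene length, *Gja1* had a mean level of 31.3 in IL-4/IL-6 (range 28.9 to 32.5) and 11.3 ± 0.317 in IL-13/IL-6 (SD, n = 3), the highest of the members in both groups. In control, IL-4 and IL-13 its mean level was between 0.155 and 0.214 FPKM. *Cldn11* reached 4.53 ± 0.143 FPKM with IL-4 and 5.13 ± 0.777 with IL-4/IL-6, close to the level of *Panx1*, which was between 3.02 and 4.15 FPKM over the 5 group means. *F11r* was at 2.13 ± 0.299 FPKM in control and at most 0.718 elsewhere, *Cldn1* at 0.327 ± 0.0238 FPKM in control, and *Tjp1* at most at 0.143 ± 0.0734 FPKM, its IL-4/IL-6 level. In control the order of levels was *Panx1*, *F11r*, *Cldn1*, *Gja1* and *Tjp1*, and in IL-4/IL-6 it was *Gja1*, *Cldn11*, *Panx1*, *Tjp1* and *F11r*.

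Of 75 gap and tight junction genes in the lists (connexins, pannexins, claudins, MARVEL proteins, the JAM and CTX family and scaffolds), 53 had any count and 22 were tested. Among the claudins 11 of 23 had any count and 3 were tested, *Cldn1*, *Cldn11* and *Cldn12*. *Cldn12*, the only other claudin above the filter, kept between 1.32 and 1.62 FPKM in the group means and was not called in any comparison by edgeR. *Ocln*, which encodes occludin, had at most 1 count in any library. Over the 16 tested genes other than the members, IL-6 on IL-4 raised 3 and lowered 4 (median log2 fold change -0.29 against 0.04 over all tested genes), and IL-6 on IL-13 raised 1 and lowered 2 (median -0.06 against 0.00). Against control, IL-4 raised 4 and lowered 6 (median 0.10), IL-13 raised 6 and lowered 5 (0.08), IL-4/IL-6 raised 3 and lowered 7 (-0.24), and IL-13/IL-6 raised 3 and lowered 4 (0.12). Of all tested genes 68.0%, 60.1%, 72.9% and 64.0% were called in these 4 comparisons, and 39.4% and 25.6% with IL-6 on IL-4 and on IL-13. The counts include *Esam*, *Marveld2* and *Pard6g*, which passed the filter only through the groups where they were high, so the counts are a description. The count lowered by IL-6 on IL-13 was 0 without IL-13/IL-6 replicate 1, 1 without IL-13 replicate 2 or 3 or IL-13/IL-6 replicate 3, and 4 with no filter.

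The other tested genes of the JAM and CTX family were *Esam*, an adhesion molecule of endothelial cells and platelets, and *Clmp*. *Clmp* was lower than control in the 4 cytokine groups by edgeR's test, with log2 fold changes between -2.10 and -1.13. *Esam* had 3.48 ± 0.821 normalized CPM in control (SD, n = 3) and means between 0.0535 and 0.212 in the cytokine groups. *Esam*, like *Marveld2*, passed the filter only through the control libraries, so its values are a description. Of 8 endothelial markers 5 had their highest mean in control. The list summed to 211 to 224 normalized CPM in control and to at most 131 elsewhere. Most of the sum was *Vwf*, with a mean of 201 in control. *Kdr* and *Cdh5* were highest in IL-13/IL-6, at 39.4 and 1.13 against 12.9 and 0.421 in control. Like *Esam* and *F11r*, the sum and *Itga2b* were highest in control. Between cytokine groups the sum did not follow *F11r*. It was 116 to 131 in IL-4 and 90.7 to 118 in IL-13, where *F11r* was higher. The part of these markers in the differences of *Esam*, *Clmp* and *F11r* was not tested. *Marveld2*, which encodes tricellulin at the corners between epithelial cells, had 1.52 ± 0.109 normalized CPM in control (SD, n = 3). Its means in the cytokine groups were at most 0.343, at no more than 10 counts per library.

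The scaffold genes other than *Tjp1* differed in direction. *Tjp3*, which encodes ZO-3, fell against control in all 4 groups, with log2 fold changes between -1.41 and -0.98. For no listed gene was the part of the other bone marrow cells, most of whose markers were highest in control, tested in its difference from control. *Patj*, a scaffold of epithelial polarity, rose with IL-6 on IL-4 by 1.33 (standard error 0.283, adjusted p = 0.00109, edgeR) and had 0.16 (standard error 0.387, adjusted p = 0.823) with IL-6 on IL-13. *Afdn*, which encodes afadin and links nectins to actin, fell with IL-6 on both backgrounds, by 1.00 (adjusted p = 4.11e-05) and by 0.49 (adjusted p = 0.0217, edgeR). *Ybx3*, whose product binds ZO-1 and acts on transcription, rose over control in all 4 groups, with log2 fold changes between 2.17 and 2.94. *Magi2* fell by 1.07 with IL-6 on IL-4 (edgeR call). *Pard6g*, which passed the filter only through libraries where it was high, had a log2 fold change of 1.41 in IL-13 over control, a description without a test.

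Among the adherens junction genes, which join cells through cadherins and nectins, 11 of 14 were tested. *Cdh1*, which encodes E-cadherin, had 1.32 ± 0.123 normalized CPM in control, 58.3 ± 1.49 with IL-4, 121 ± 1.93 with IL-4/IL-6, 18.4 ± 1.61 in IL-13 and 52.6 ± 0.861 in IL-13/IL-6 (SD, n = 3). The groups of *Cdh1* did not overlap, and it rose with IL-6 on IL-4 by 1.06 (standard error 0.0663, adjusted p = 8.19e-10) and on IL-13 by 1.52 (standard error 0.0714, adjusted p = 4.12e-11, edgeR). Like *Cldn11*, *Cdh1* was higher on IL-4 than on IL-13, and like *Gja1* it was higher with IL-6. *Jup*, which encodes plakoglobin, fell against control in all 4 groups and fell with IL-6 on both backgrounds, by 1.28 on IL-4 and by 1.02 on IL-13. *Ctnnb1* and *Nectin4* were lower than control in all 4 groups, and *Pvr* was higher than control in all 4. The part of other cell types in the differences of the adherens junction genes from control was not tested. *Nectin2* was lower than control in all 4 groups and rose with IL-6, by 0.76 on IL-4 and by 0.87 on IL-13, while *Nectin1* fell by 1.12 with IL-6 on IL-13. *Cdh5*, at 0.263 FPKM or less, was higher than control in IL-13/IL-6 by 1.42 on the log2 scale (adjusted p = 0.0325, edgeR), and *Nectin3* had at most 14 counts in any library.

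**Figure D4:**
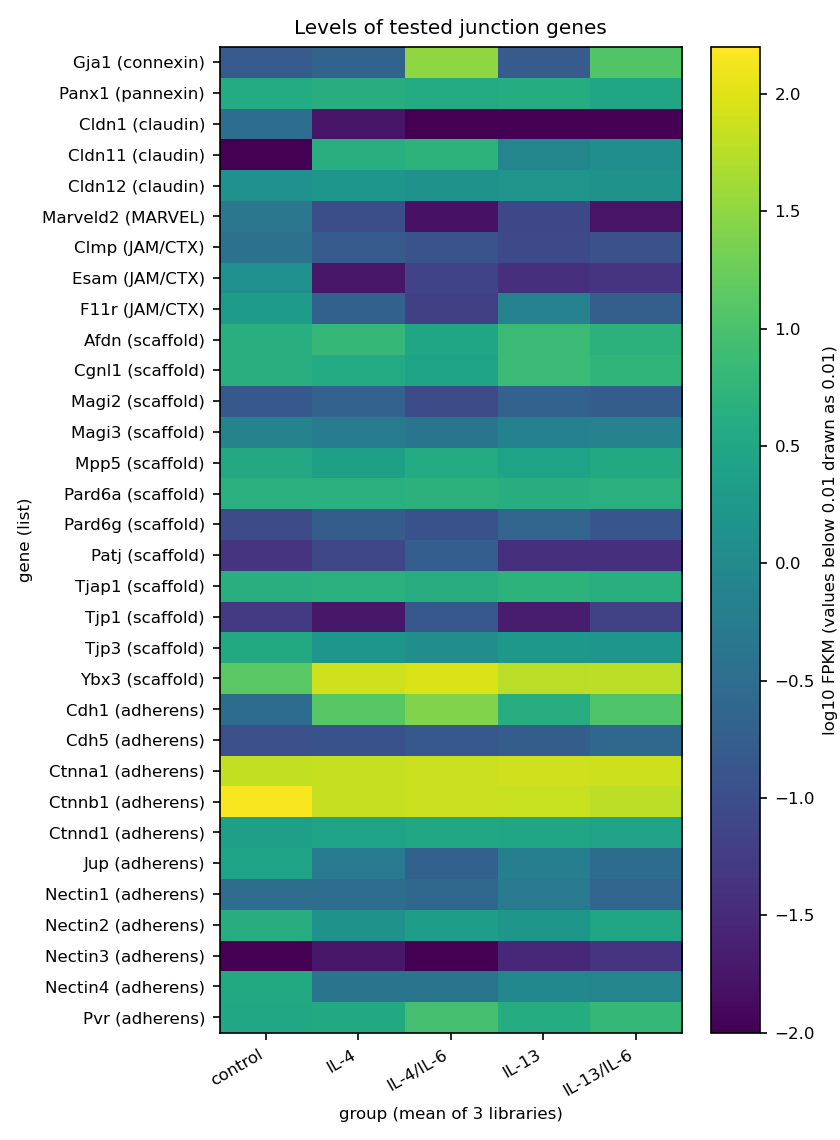
Mean FPKM (log10 color scale, n = 3 libraries per group) of tested junction genes by list. *Gja1* is at 31.3 FPKM in IL-4/IL-6 and 11.3 in IL-13/IL-6 and below 0.22 in the other groups, while *Panx1* and *Cldn12* vary little.

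The tested genes whose log2 CPM followed a member most closely over the 15 libraries were taken as a description, since the libraries fall into 5 groups and the correlations rest on them. For *Gja1* they were *Ms4a6d* (Pearson's r = 0.99), *Plek* (0.986) and *Enpp1* (0.986). *Ms4a6d* had means of 1310 normalized CPM in IL-4/IL-6 and 847 in IL-13/IL-6 against at most 168 in the other groups. For *Cldn11* they were *Bcar3* (0.995), *Pcyox1l* (0.989) and *Klf4* (0.989), and *Klf4*, a transcription factor of alternatively activated macrophages, had means of 12.0 in control, 111 with IL-4 and 57.1 with IL-13. For *F11r* they were *Nbeal2* (0.968), *Cbx7* (0.965) and *Siglece* (0.963). For *Cldn1* they were *4833407H14Rik* (0.989), *Fhl1* (0.989) and *Prg2* (0.986), the last a granule protein gene of eosinophils with 14.6 normalized CPM in control and at most 0.0738 elsewhere. The correlations were lower for *Panx1* (*Dnah12*, 0.859, *Abhd5*, 0.856, and *Atg10*, 0.853) and *Tjp1* (among its closest, *Hs1bp3*, 0.856, and *Slc22a5*, 0.851). Between members, *Cldn11* and *F11r* ran opposite to each other (r = -0.884), as did *Cldn11* and *Cldn1* (-0.84).

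The promoter windows of the members were read from RefSeq (GRCm38.p6), 250 bases before to 50 bases after the annotated start, and all 7 members matched. They were searched on both strands for a motif of the AP-1 type, TGANTCA, and for spaced palindromes of the STAT type, TTC and GAA with 3 or 4 bases between them, because the cytokines signal through STAT proteins and the study examined ERK. No motif overlapped another. *Gja1* and *F11r* each held one AP-1 type match, at positions -19 and -109 from the start, a motif found in 7.81% of all 32851 promoter windows. No member held a STAT type palindrome, which 8.30% (3 bases between) and 6.95% (4 bases between) of all windows did, and this says only that these letters are not in these windows. The windows of *Gja1* and *F11r*, the matched ones, and of *Cldn11*, which had no count in control, are shown 5′ to 3′ on the plus strand, with the AP-1 type match in capitals. They lie at chr10:56377050-56377349 (*Gja1*), chr1:171437311-171437610 (*F11r*) and chr3:31149670-31149969 (*Cldn11*).
Gja1: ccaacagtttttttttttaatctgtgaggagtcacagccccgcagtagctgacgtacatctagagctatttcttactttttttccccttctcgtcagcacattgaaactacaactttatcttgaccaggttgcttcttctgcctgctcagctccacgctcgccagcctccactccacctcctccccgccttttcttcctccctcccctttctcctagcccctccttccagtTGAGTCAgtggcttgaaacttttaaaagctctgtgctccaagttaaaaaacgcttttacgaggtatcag
F11r: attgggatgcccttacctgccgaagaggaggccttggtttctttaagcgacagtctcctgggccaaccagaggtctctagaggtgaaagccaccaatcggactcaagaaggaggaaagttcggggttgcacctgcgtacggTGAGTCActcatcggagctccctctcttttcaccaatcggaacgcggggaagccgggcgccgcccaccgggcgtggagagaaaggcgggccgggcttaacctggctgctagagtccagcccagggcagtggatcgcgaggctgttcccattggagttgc
Cldn11: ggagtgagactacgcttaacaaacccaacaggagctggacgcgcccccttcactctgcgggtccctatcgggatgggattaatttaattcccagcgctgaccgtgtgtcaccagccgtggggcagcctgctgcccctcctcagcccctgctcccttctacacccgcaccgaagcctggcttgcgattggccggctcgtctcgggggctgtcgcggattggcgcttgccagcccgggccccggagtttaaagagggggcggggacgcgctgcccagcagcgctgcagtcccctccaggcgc

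The GC content of the windows was 47.7% for *Gja1*, the lowest of the 7 members, 60.3% for *F11r* and 66.3% for *Cldn11*, against a median of 52.7% over all windows. A match is a description of sequence and no evidence of binding.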

How the data were processed

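RNAseq of BMDMs was carried out by a service company. The authors deposited raw counts per Ensembl gene for 15 libraries in one table, and FPKM values per library, which equal the count divided by gene length and library total. The submitters' processing notes name CASAVA, Bowtie2 2.2.3, HISAT2 2.1.0, TopHat2, DESeq2 and GRCm38. The counting tool, annotation, strand setting and read filters are not given in the sources used here, so reads of overlapping genes or near copies could have been misassigned. No exon of a member overlaps another gene in the GENCODE annotation of GRCm38, from which coordinates and symbols were taken (53274 identifiers matched).

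The tests used edgeR 4.0.16 (R 4.3.3) with filterByExpr (minimum count 10, 13938 genes), TMM scaling and the quasi-likelihood test in one fit of all 15 libraries. P-values were adjusted by the Benjamini-Hochberg method over all tested genes, and genes under 0.05 were called. The code was tested on simulated data. Against a group with no counts, folds were bounds from a limit of 3 counts per library, for counting error only. FPKM served only for levels between genes. Alternatives were DESeq2 1.42.0, upper-quartile scaling, other filters, fits of the compared groups alone, a replicate block and omission of single libraries. Replicate libraries differed beyond counting noise (mean chi-square per gene at least 2.68). The study speaks of biological replicates and states in general that its data come from at least 3 independent experiments. For the RNAseq libraries themselves no source used here says whether they were separate cultures or animals. The p-values therefore measure the spread between these libraries, which may be technical. The libraries that stood apart were picked after seeing the data, by a mean chi-square above 10 against both partners.

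The members and the gene lists were chosen with earlier results of these data known. The members, list genes with a call and a log2 fold change beyond 1 in either direction, and the 3 best correlated genes per member (log2 CPM, prior count 2) were named. Some items named by this rule are not reported here.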

Additional observations from a re-analysis of the deposited data

Results flagged for a closer look

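The effect of IL-6 differed between the IL-4 and IL-13 backgrounds for 3 of the 11 tested adherens junction genes, by edgeR's test of the difference of the effects, which called 7.64% of all tested genes. The difference, IL-6 effect with IL-4 minus that with IL-13 on the log2 scale, was -0.46 for *Cdh1* (adjusted p = 0.00539), 0.34 for *Ctnnb1* and 0.77 for *Pvr*. *Cdh1* and *Pvr* rose with IL-6 on both backgrounds, while *Ctnnb1* rose by 0.21 on IL-4 (adjusted p = 0.0144) and had -0.14 on IL-13 (adjusted p = 0.129, edgeR).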

How the results depend on the processing

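Of 595 values of the members under the alternatives, over 49 results, 550 kept their direction and side of the threshold. The cause of the following changes was not tested. With DESeq2 the log2 fold changes of *Cldn1* against control, past the threshold in edgeR only, were -4.20 (IL-4), -6.69 (IL-13), -6.59 (IL-4/IL-6) and -6.64 (IL-13/IL-6). *Gja1*, given without a test, was 0.50 in DESeq2 and 0.58 with no filter in IL-4 against control, and 1.06 and 1.02 for the difference of its IL-6 effects. Calls absent from the main test were gained as follows. DESeq2 gave -0.25 for *Panx1* in IL-13/IL-6 against control, and for *F11r* -1.61 (IL-4/IL-6 against IL-4) and -1.53 (IL-4/IL-6 against IL-13/IL-6). With no filter the gained calls were -1.59 and -1.52 for *F11r*. *Panx1* in IL-13/IL-6 against control was -0.29 with upper-quartile scaling, -0.26 with CPM above 1 and -0.24 in a fit of the compared groups, where IL-4 against control was 0.20.

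Leaving out single libraries gave these ranges. *Gja1* was 0.084 to 0.81 (IL-4 against control), -0.087 to 0.34 (IL-13 against control), -0.004 to 0.72 (IL-4 against IL-13) and 0.79 to 1.52 (difference of IL-6 effects). *Panx1* was -0.004 to 0.18 (IL-13 against control), -0.35 to -0.17 (IL-13/IL-6 against control), -0.39 to -0.32 (IL-13/IL-6 against IL-13) and 0.30 to 0.42 (IL-4/IL-6 against IL-13/IL-6). *Cldn1* was -7.19 to -3.48 (IL-4 against control). *Cldn11* was 0.39 to 0.98 (IL-13/IL-6 against IL-13). *F11r* was -7.25 to -4.32 (IL-4/IL-6 against control), -3.91 to -1.01 (IL-4/IL-6 against IL-4), -3.84 to -0.93 (IL-4/IL-6 against IL-13/IL-6) and -2.03 to 0.87 (difference of IL-6 effects). *Tjp1* was 1.25 to 1.97 (IL-4/IL-6 against control), -0.68 to 0.42 (IL-4 against IL-13) and 0.73 to 1.59 (IL-4/IL-6 against IL-13/IL-6).

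Over all genes, those higher in IL-4 than in IL-13 numbered 719, 1153 with no filter and 444 to 1291 with libraries left out, and those lower 1060 and 644 to 1623. Genes that IL-4/IL-6 had higher when set against IL-13/IL-6 numbered 2207, and 1326 in a fit of these groups alone. The difference of IL-6 effects was positive for 449 called genes, and 293 to 607 with libraries left out. Upper-quartile scaling moved the share of calls that were higher from 52.6% to 39.0% for IL-4/IL-6 against IL-4 and from 42.2% to 31.7% for the difference of IL-6 effects, and the median of all genes in IL-4/IL-6 against control to -0.12. The replicate numbers did not pair the libraries (correlations of same-numbered deviations from -0.276 to 0.163), and a replicate block left every member's call as it was, with *Gja1* at 0.50 in IL-4 against control. Over all pairs the largest correlation was 0.393, between IL-4/IL-6 replicate 2 and IL-13 replicate 1, the libraries that stood apart, and its cause was not tested. Depth limits *Tjp1*, *Cldn1* and *F11r* with cytokine, at a few counts per library.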
